A study of Mus musculus with 6 samples.

Results

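The genes described here write, remove and read DNA methylation. They are the 3 DNA methyltransferases Dnmt1, Dnmt3a and Dnmt3b, the 3 Tet dioxygenases Tet1, Tet2 and Tet3, the thymine DNA glycosylase Tdg, and the methyl-CpG binding domain genes Mbd1, Mbd2 and Mbd3. They were chosen by gene symbol, and all 10 were listed in all 4 RNA libraries, among 14455 gene symbols in all. RNA came from LSK cells, which are bone marrow cells that lack lineage markers and carry Sca-1 and c-Kit, a fraction that includes blood stem cells and early progenitors. The donors were mice on a C57BL/6 background, either with Setd2 deleted on induction (KO) or wild type (WT), and the cells were taken 8 months (old) or 4 weeks (young) after pI-pC, the double-stranded RNA that induces the deletion. The labels give the time after pI-pC and not the age of the animals, and give pI-pC for the WT groups too. They do not name the Cre line that drives the deletion. Each of the 4 groups, young KO, young WT, old KO and old WT, has 1 total RNA library. No value therefore has a replicate error, and every difference describes these libraries alone, with no p-value.

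DNA methylation is copied onto newly made strands by DNMT1 and placed on unmethylated CpG sites by DNMT3A and DNMT3B. The PWWP domains of DNMT3A and DNMT3B bind methylated H3K36, the histone residue that the SETD2 enzyme trimethylates, which is why a Setd2 deletion raises the question of how the methylation machinery is expressed. TET enzymes oxidise 5-methylcytosine, and TDG cuts out the later oxidation products so that base excision repair can restore an unmodified cytosine. MBD1 and MBD2 bind methylated CpG, while mammalian MBD3 binds it poorly and takes the place of MBD2 in alternative forms of the NuRD chromatin remodelling complex. In blood, loss of DNMT3A or TET2 function is a well known early step of clonal expansion and leukemia.

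Levels are FPKM, which is per length of transcript, after scaling the libraries to each other, so that genes can be set side by side. Differences between libraries are on the log2(scaled FPKM + 1) scale unless another scale is named. This scale understates the change of low genes. A difference of 1 is called 2-fold and one of 0.585 is called 1.5-fold.

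None of the 10 genes differed by 1.5-fold between KO and WT at either age, in either direction. Of the genes measured in young cells, 1.02% passed 2-fold as higher in KO and 0.701% as lower, while 4.13% passed 1.5-fold as higher and 3.64% as lower. Without scaling the young split turned, to 2.99% past 1.5-fold as higher and 5.57% as lower. In old cells 1.63% passed 2-fold as higher in KO and 2.66% as lower, while 5.51% passed 1.5-fold as higher and 6.48% as lower. A count of 0 among 10 genes is near those shares and is not a result about these genes. The median difference of the 10 genes was 0.01 in young cells and 0.05 in old cells, beside 0.00 over all genes measured at each age. Without scaling it was -0.10 in young cells, as was the median of all genes there. Their median absolute difference was 0.16 in young and 0.12 in old cells, beside 0.17 and 0.19 over all genes. In young KO cells 5 of the 10 stood above WT and 5 below, where 50.5% of all genes stood above. In old KO cells 7 stood above WT and 3 below, where 50.3% of all genes stood above.

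**Figure D1:**
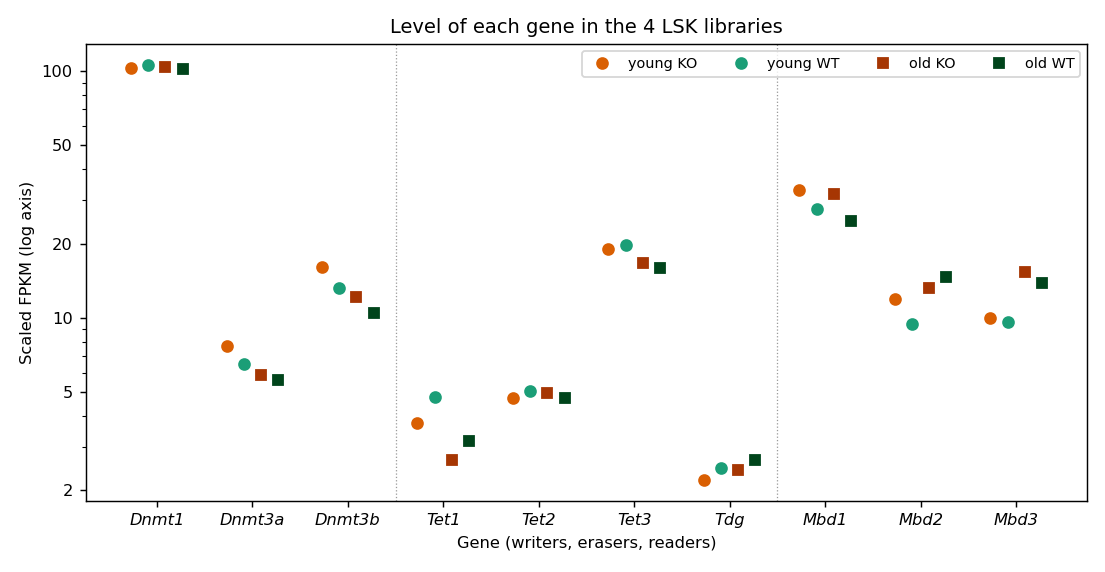
Scaled FPKM (log axis) of the 10 genes in each of the 4 libraries, 1 point a library, with writers at the left, erasers in the middle and readers at the right. Dnmt1 lay between 102 and 106 in every library, and the gene with the widest spread was Tet1, between 2.64 and 4.79.

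The order of levels was nearly the same in all libraries. Dnmt1 was the highest of the 10 genes, Mbd1 the second and Tet3 the third in all 4 libraries. Dnmt3a, Tet2, Tet1 and Tdg held the last 4 places, in that order, in all 4. The places between were taken by Dnmt3b, Mbd2 and Mbd3, with Dnmt3b above both Mbd genes in the young libraries and below both in the old ones. Among all genes listed in a library, Dnmt1 lay between percentiles 97.8 and 98.8 and Tdg between 24.5 and 29.2. Depth was estimated from the spacing of the lowest values, as counted units for 1 kb of transcript. At that length the counting error ran from 3.04% for Dnmt1 in young WT to 22.6% for Tdg in young KO, and it is smaller for longer transcripts. It covers counting alone and not the spread between animals. By this measure, at 1 kb and with the coarser reading of a unit, Tet2 and Dnmt3a could not be told apart in young WT, old KO or old WT, nor Mbd2 and Mbd3 in any library. The same held for Tet3 and the gene next below it in young KO, old KO and old WT. It held for Tet2 and Tet1 in all but old KO, and for Tet1 and Tdg in all but young WT. Mbd3 and Dnmt3a in young KO, and Mbd2 and Dnmt3b in old KO, were not apart either. The third place and the order of the last places are thus mostly not settled.

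Among the writers, Dnmt1, the maintenance methyltransferase (ENSMUSG00000004099, mm10 chromosome 9, 20907206 to 20959888), had a scaled FPKM of 103 in young KO and 106 in young WT, and of 104 in old KO and 102 in old WT. The highest value was 1.04 times the lowest. Among genes at 1 or more in all 4 libraries, 99.6% had a wider spread over the libraries. The difference between KO and WT was -0.04 in young and 0.03 in old cells. Genes of DNA synthesis, on which maintenance methylation follows, summed to a scaled FPKM of 979.5 in young KO, 969 in young WT, 938 in old KO and 978 in old WT over a list of 30 S phase genes, all of them listed in every library.

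The de novo methyltransferase genes were lower and varied more. Dnmt3b (ENSMUSG00000027478, chromosome 2, 153649450 to 153687730) had a scaled FPKM of 16.1 in young KO against 13.3 in young WT, and of 12.2 in old KO against 10.5 in old WT. Both KO values lay above the WT value of the same age, by 0.26 in young and 0.20 in old cells, and both old values lay below both young values. Of all genes measured, 32.0% differed as much between KO and WT in young cells and 49.1% in old cells. Dnmt3a (ENSMUSG00000020661, chromosome 12, 3806007 to 3914443) followed the same order of libraries, the highest 1.37 times the lowest, with 7.71 in young KO against 6.52 in young WT and 5.85 in old KO against 5.62 in old WT. Its KO difference was 0.21 in young and 0.05 in old cells. Dnmt3l, the catalytically inactive partner of the de novo enzymes, was listed in no library at the 0.5 FPKM that the files list from.

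Within a library the shares of a family do not depend on scaling. Dnmt1 made up 81.2% of the summed FPKM of the 3 methyltransferase genes in young KO and 84.3% in young WT, and 85.3% in old KO and 86.4% in old WT. Dnmt3b made up 12.7% in young KO and 10.5% in young WT, and 9.94% in old KO and 8.87% in old WT. The ratio of Dnmt3b to Dnmt3a was 2.09 in young KO and 2.04 in young WT, and 2.08 in old KO and 1.87 in old WT. The de novo genes thus took a slightly larger share of the family in KO than in WT at both ages, with 1 library in each group. In young cells Dnmt1 was also lower in the KO library, by the 0.04 above.

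**Figure D2:**
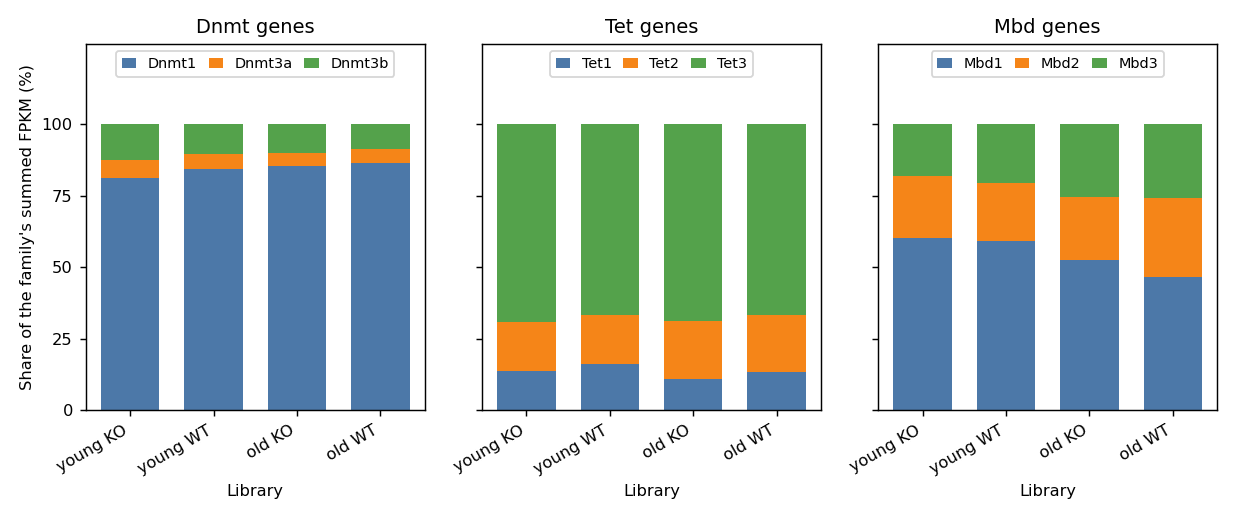
Share of each gene in the summed FPKM of its family (%), 1 stacked bar a library, for the Dnmt, Tet and Mbd genes. Dnmt1 held 81.2% to 86.4% of the Dnmt sum and Tet3 66.9% to 69.2% of the Tet sum, while the share of Mbd1 ran from 46.4% in old WT to 60.2% in young KO.

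Among the erasers Tet3 was the most abundant. Tet3 (ENSMUSG00000034832, chromosome 6, 83362373 to 83459084) had a scaled FPKM of 19.0 in young KO and 19.8 in young WT, and of 16.8 in old KO and 15.9 in old WT. It made up 69.2% of the summed FPKM of the 3 Tet genes in young KO, 66.9% in young WT, 68.8% in old KO and 66.9% in old WT. A clone-named gene, RP23-331I23.5, lies within the Tet3 locus and shares 3553 bases with it, at a deposited FPKM of 9.31 in young KO, 10.3 in young WT, 4.99 in old KO and 6.08 in old WT. The use of strand in counting is not stated in the labels, so reads of the overlapping stretch may belong to either gene.

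Tet2, whose loss is common in blood cancers (ENSMUSG00000040943, chromosome 3, 133463679 to 133545139), was nearly as even as Dnmt1. It had a scaled FPKM of 4.72 in young KO and 5.03 in young WT, and of 4.95 in old KO and 4.71 in old WT, a highest-to-lowest ratio of 1.07. The KO difference was -0.08 in young and 0.06 in old cells, and 99.0% of genes at 1 or more in all libraries had a wider spread.

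Tet1 (ENSMUSG00000047146, chromosome 10, 62804570 to 62899118) had the widest spread of the 10 genes. It stood at 3.73 in young KO against 4.79 in young WT, and at 2.64 in old KO against 3.17 in old WT. The KO library was the lower one at both ages, by -0.29 in young and -0.20 in old cells. As ratios of scaled FPKM these were 0.779 and 0.832. Of all genes measured, 27.9% differed as much in young and 48.9% in old cells. At 1 kb of transcript, counting alone gave a 95% half-width of 0.64 in young and 0.79 in old cells, on the log2 scale of the ratio. That is wider than either difference, but the half-width is smaller for a longer transcript. The transcript length of Tet1 was not used. Tet1 held 13.6% of the Tet sum in young KO and 16.2% in young WT, and 10.8% in old KO and 13.3% in old WT.

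Tdg (ENSMUSG00000034674, chromosome 10, 82629828 to 82650799) was the lowest of the 10 genes in all 4 libraries, at 2.20 in young KO and 2.46 in young WT, and at 2.41 in old KO and 2.66 in old WT. Both KO values were the lower ones, by -0.11 at each age. A copy on chromosome 15 that the files describe as a pseudogene, Tdg-ps (82516311 to 82519278), had higher values, with 4.41 in young KO and 4.76 in young WT, and 4.00 in old KO and 5.93 in old WT. RefSeq, in contrast, gives this copy as protein coding. Reads may be split between the copies, so the value of Tdg alone is uncertain. With both summed, a step chosen after the data were seen, the KO difference was -0.11 in young and -0.37 in old cells.

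The summed methyltransferase level exceeded the summed Tet level 4.62-fold in young KO and 4.25-fold in young WT, and 5.03-fold in old KO and 4.97-fold in old WT. The ratio was higher in KO than in WT at both ages, but by little in old cells (5.03 against 4.97). It was also higher in the old than in the young libraries. No counting error is given for these ratios, and no group has a replicate, so this order is not settled.

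Among the readers, Mbd1 (ENSMUSG00000024561, chromosome 18, 74268272 to 74282685) had the largest KO difference of the 10 genes in old cells and a difference of like size in young cells. Its scaled FPKM was 33.1 in young KO against 27.7 in young WT, and 31.8 in old KO against 24.6 in old WT. The values of both KO libraries lay above those of both WT libraries. The differences were 0.25 in young and 0.36 in old cells, or ratios of 1.19 and 1.29. Mbd1 was the 1 gene of the 10 whose KO difference passed the counting error at 1 kb, in young cells (0.26 as a log2 ratio, half-width 0.24) and in old cells (0.37, half-width 0.26). Every gene was taken at 1 kb here, and longer transcripts have smaller counting errors. The result also rests on the coarser of 2 readings of a counted unit. With the finer one, a step added after the data were seen, Dnmt3b (0.28, half-width 0.24) and Mbd2 (0.33, half-width 0.28) passed as well in young cells, and Mbd1 was still the 1 gene to pass in old cells. The passes in young cells also rest on the scaling. Without scaling the young differences were 0.13 for Mbd1, 0.15 for Dnmt3b and 0.19 for Mbd2, each inside its half-width. The old difference of Mbd1 was then 0.35, still beyond its half-width. Of all genes measured, 34.4% in young cells and 26.5% in old cells differed as much as Mbd1.

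Other gene lists are given beside these values. The list of 25 mitosis genes, all of them listed in every library, summed to a scaled FPKM of 528 in young KO against 458 in young WT and to 615 in old KO against 538 in old WT. All 21 red cell markers were listed in every library, with summed levels of 1012 in young KO against 470 in young WT and 316 in old KO against 478 in old WT. In the young KO library all 21 stood above WT. In the old one 14 stood below WT and 7 above, with 5 at least 2-fold lower and 3 at least 2-fold higher. Hbb-bs, among the higher ones, was at 28.1 in old KO against 12.2 in old WT. The part of either list in the Mbd1, Dnmt3b and Tet1 values was not tested. In these bulk samples, more RNA per cell and more cells of a type cannot be told apart.

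Mbd2 (ENSMUSG00000024513, chromosome 18, 70568189 to 70626131) differed in direction between the ages. It stood at 11.9 in young KO against 9.45 in young WT, a difference of 0.30 and the largest positive one of the 10 genes in young cells. In old cells it stood at 13.2 in KO against 14.6 in WT, a difference of -0.13. Mbd3 (ENSMUSG00000035478, chromosome 10, 80392539 to 80399550) had 10.01 in young KO and 9.58 in young WT, and 15.4 in old KO and 13.8 in old WT, with KO differences of 0.06 in young cells (-0.05 without scaling) and 0.15 in old cells. The ratio of Mbd2 to Mbd3, the alternative subunits of NuRD, was 1.19 in young KO and 0.987 in young WT, and 0.862 in old KO and 1.06 in old WT. The KO library thus had the higher ratio in young cells and the lower one in old cells. By the counting error at 1 kb, however, Mbd2 and Mbd3 could not be told apart in any library.

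**Figure D3:**
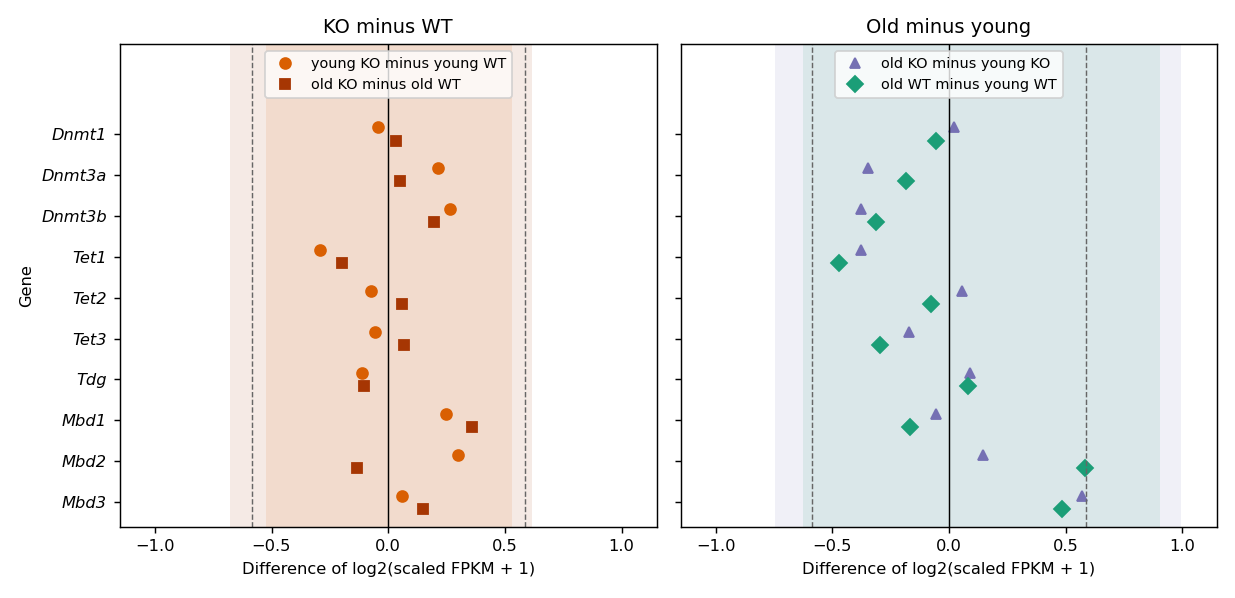
Differences of log2(scaled FPKM + 1) for each gene, KO minus WT at the left and old minus young at the right, 1 point a gene and comparison. Shaded bands run from the 5th to the 95th percentile of all genes measured in each comparison, and dashed lines mark 1.5-fold. All 40 points lie inside the bands and inside the dashed lines, with Mbd2 in the WT libraries nearest to a line at 0.58.

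Set by age, old against young, again no gene of the 10 reached 1.5-fold on the log2(scaled FPKM + 1) scale. As plain ratios of scaled FPKM, Mbd2 (1.55) and Tet1 (0.662) passed it between the WT libraries, and Mbd3 (1.53) between the KO libraries. Between the KO libraries, 5 of the 10 stood higher in old cells, where 49.8% of all genes did. With upper-quartile scaling 3 of the 10 stood higher and 7 lower there, and their median was -0.13 in place of -0.02. Of all genes, 4.95% passed 2-fold as higher in old KO and 2.24% as lower, while 12.4% passed 1.5-fold as higher and 8.01% as lower. Between the WT libraries, 3 of the 10 stood higher in old cells, where 49.2% of all genes did. Of all genes, 4.22% passed 2-fold as higher in old WT and 1.33% as lower, while 9.93% passed 1.5-fold as higher and 5.88% as lower. These 1.5-fold splits turned under other scalings, to 10.02% as higher and 10.9% as lower between KO libraries with upper-quartile scaling and to 7.98% as higher and 8.5% as lower between WT libraries without scaling. The median absolute difference of the 10 genes between old and young was 0.16 in KO and 0.24 in WT cells, beside 0.28 and 0.24 over all genes. The age comparisons use the same libraries as the KO comparisons and are not separate from them.

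Mbd3 stood higher in the old libraries, at 15.4 in old KO against 10.01 in young KO and at 13.8 in old WT against 9.58 in young WT. The differences were 0.57 and 0.48, or ratios of 1.53 and 1.44, and both passed the counting error at 1 kb. Mbd2 was higher in old WT than in young WT, by 0.58 or a ratio of 1.55, and less so between the KO libraries, by 0.15. Tet1 was lower in the old libraries, by -0.38 between KO and -0.47 between WT libraries, with ratios of 0.707 and 0.662. Dnmt3b was lower in the old libraries too, by -0.38 between KO and -0.31 between WT libraries, as was Dnmt3a, by -0.35 between KO and -0.18 between WT libraries. Tet3 was lower by -0.17 between KO and -0.30 between WT libraries. For Dnmt1 and Tet2 the age difference was at most 0.08 in size, but between the WT libraries it was -0.17 for each without scaling, and -0.14 for Dnmt1 and -0.15 for Tet2 with upper-quartile scaling.

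Age, sex and cell content cannot be told apart here. Xist, which coats an inactive X, was at 279 in old KO and 291 in old WT and listed in neither young library, while the Y-linked Eif2s3y was at 11.9 in young KO and 9.91 in young WT and listed in neither old library. Antigen receptor segments held 4.67% of the summed FPKM in old KO and 26.8% in old WT, against 0.888% in young KO and 0.637% in young WT. Of 16 plasma and B cell markers, 15 were listed in old KO and 11 in old WT, against 9 in young KO and 6 in young WT, and Ms4a1 was listed in none. Their levels summed to 226 in old KO and 2212 in old WT, against 66.4 in young KO and 53.6 in young WT. Of 18 neutrophil markers, 18 were listed in old KO and 17 in old WT, against 10 in each young library, with sums of 2356 in old KO and 1298 in old WT, against 872.5 in young KO and 973 in young WT. Of 12 monocyte markers, 12 were listed in old KO and 10 in each other library, with sums of 571 in old KO and 163 in old WT, against 163 in young KO and 198 in young WT. Of 12 T and NK cell markers, 9 were listed in old KO and 6 in old WT, against 4 in young KO and 5 in young WT, with Cd4 and Cd8a in none and sums between 42.7 and 64.1. All 14 stem and progenitor markers were listed in every library, at sums of 226 in old KO and 238 in old WT, against 254 in young KO and 277 in young WT. Of the genes used for sorting, Kit lay between 41.1 and 61.0 and Ly6a, which encodes Sca-1, between 3.17 and 8.80. Setd2 itself was at 12.4 in young KO and 14.1 in young WT, and at 15.5 in old KO and 15.3 in old WT, and RNA outside the deleted exons can remain, so this does not check the labels. The part of these differences in the values of the 10 genes was not tested.

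The promoters of the genes were compared for CpG sites, the substrate of the enzymes. RefSeq promoter windows on GRCm38.p6, the build of the files, were used for 8 of the 10 genes, 12 windows in all. The 250 bases before each start were counted. Mbd1 and Mbd2 were left out of this count, which does not mean that they lack a window. Their promoters were not examined. The motif was the dinucleotide CG, which reads the same on both strands. Over all 32841 windows the median was 6 CpG sites. The windows of Tet2 (51), Tdg (19), Tet3 (17), Tet1 (15), Mbd3 (14) and Dnmt3b (21) all held more than the median. The 3 windows of Dnmt3a held 38, 40 and 15, and the 3 of Dnmt1 held 2, 7 and 26. Only 0.067% of all windows held as many as that of Tet2, while 27.3% held as many as that of Tet1. A gene-level FPKM does not say which of several starts was used. The windows of the 2 genes with the widest spread over the libraries, Tet1 and Mbd3, and of Dnmt3b, the most variable methyltransferase gene, are shown with CG in capitals.
Tet1, chr10:62887325-62887574, minus strand: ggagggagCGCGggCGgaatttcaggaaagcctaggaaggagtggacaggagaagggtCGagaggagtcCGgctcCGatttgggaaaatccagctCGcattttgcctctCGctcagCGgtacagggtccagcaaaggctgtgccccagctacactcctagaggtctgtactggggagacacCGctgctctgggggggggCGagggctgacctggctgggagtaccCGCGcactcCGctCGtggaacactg
Mbd3, chr10:80399532-80399781, minus strand: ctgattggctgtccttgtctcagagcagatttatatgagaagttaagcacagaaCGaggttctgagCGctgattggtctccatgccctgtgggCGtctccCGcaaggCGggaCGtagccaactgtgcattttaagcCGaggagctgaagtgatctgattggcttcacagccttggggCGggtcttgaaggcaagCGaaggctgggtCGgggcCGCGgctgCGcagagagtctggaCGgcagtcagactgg
Dnmt3b, chr2:153649199-153649448, plus strand: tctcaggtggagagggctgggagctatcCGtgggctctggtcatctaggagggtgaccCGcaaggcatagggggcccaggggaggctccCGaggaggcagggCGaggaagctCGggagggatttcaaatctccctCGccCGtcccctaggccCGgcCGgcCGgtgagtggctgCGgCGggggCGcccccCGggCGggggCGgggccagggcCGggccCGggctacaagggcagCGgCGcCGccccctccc
The window of Tet1 lies inside the locus that the files give for the gene, which extends further upstream than the RefSeq start. So do the windows of Tet2 and Tet3, all those of Dnmt3a, and those of Dnmt1 with 7 and 26 sites. The windows of Dnmt3a with 38 and 40 sites overlap each other, so these counts are not separate. The methylation of these windows was not analysed here. A CG in a window is a description of its letters and says nothing about whether it is methylated in LSK cells.

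For the 2 genes with the widest spread, the genes with the most similar course over the 4 libraries were listed, by the Euclidean distance of the log2 profile centred on its own mean, among 9595 genes at a scaled FPKM of 1 or more in all libraries, antigen receptor segments and predicted or clone-named genes left out. With 4 points a profile has many near matches, so the likeness is a description of the profile. Nearest to Tet1 were Fbxl20, Ocrl, Pafah1b2, Btbd8 and Zfp160, at distances of 0.03 to 0.05. Fbxl20, for one, stood at 11.9 in young KO against 14.4 in young WT and at 8.78 in old KO against 10.2 in old WT. Nearest to Mbd3 were Acads, Erh, Cct5, Ap3m2 and Atp5g3, at distances of 0.02 to 0.05. Acads, a dehydrogenase of fatty acid oxidation, stood at 12.9 in young KO against 12.2 in young WT and at 19.9 in old KO against 17.8 in old WT.

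Partners of the 10 genes were followed in 8 lists with 95 different genes listed in at least 1 library. In young cells 94 were measured, of which 52 stood above 0 and 42 below, with a median of 0.04, and 1 was at least 1.5-fold higher and 1 lower in KO. In old cells 93 were measured, 47 above 0 and 46 below, with a median of 0.00, and 2 were at least 1.5-fold higher and 2 lower in KO. These shares, 1.06% and 1.06% in young and 2.15% and 2.15% in old cells, were below those of all genes given above. Each rests on 1 or 2 genes of lists chosen with earlier results known, and is not a result about the partners. As plain ratios of scaled FPKM, Kdm2a, Gadd45b, Gadd45g and Ahcyl2 also passed 1.5-fold in young cells, and Zbtb4 in old cells. All of these but Kdm2a lay below a scaled FPKM of 5 there, and Gadd45g was unlisted in young WT.

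**Figure D4:**
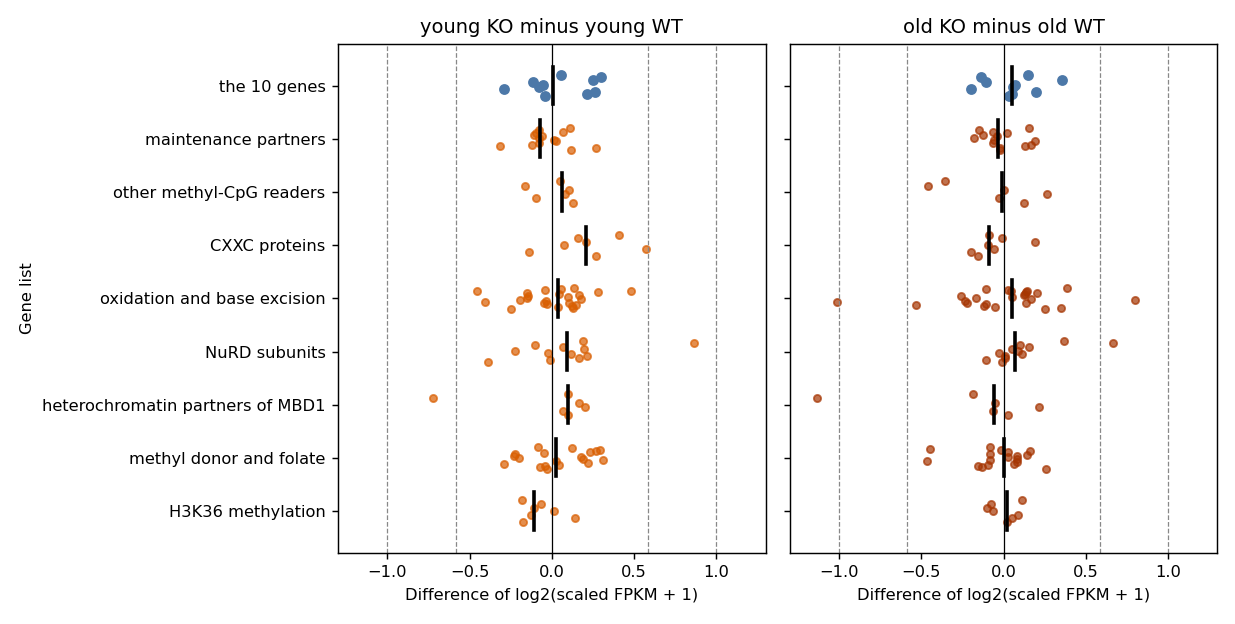
Difference of log2(scaled FPKM + 1), KO minus WT, in young cells (left) and old cells (right) for the 10 genes (top row) and 8 lists of partner genes, 1 point a gene with a black bar at the list's median. Most points lie between the dashed 1.5-fold lines, and the points outside belong to Gatad2b and Cbx3 at the left and to Gatad2b, Nthl1, Cbx3 and Neil1 at the right.

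Of 14 measured partners of maintenance methylation none reached 1.5-fold in young or old cells, and the medians were -0.07 and -0.03. Uhrf1, which brings DNMT1 to hemimethylated CpG, had a scaled FPKM of 53.3 in young KO and 49.0 in young WT, and of 54.8 in old KO and 55.7 in old WT. Pcna, the sliding clamp that DNMT1 binds, was at 83.1 in young KO and 81.7 in young WT, and at 85.6 in old KO and 75.02 in old WT. Hells, a remodeller needed for full methylation, differed most of this list in young cells, at 20.5 in young KO against 25.8 in young WT, and stood at 19.2 in old KO against 17.4 in old WT. None of the 6 other methyl-CpG readers followed here reached 1.5-fold either, with medians of 0.06 in young and -0.01 in old cells.

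The NuRD complex, which holds MBD2 or MBD3, had 1 member past 1.5-fold at both ages. Gatad2b, a subunit that binds MBD2 and MBD3, stood at 12.2 in young KO against 6.25 in young WT and at 10.6 in old KO against 6.35 in old WT, differences of 0.87 and 0.66. Both KO values lay above both WT values. The clone-named genes RP24-333B11.4 and RP24-333B11.5 overlap its locus, with scaled values of 6.60 and 5.38 in young KO, 6.02 and 5.07 in young WT, 3.97 and 3.16 in old KO, and 4.03 and 3.12 in old WT. These were nearly even between KO and WT at each age. The other 11 measured subunits stayed within 1.5-fold, and the medians of the 12 were 0.09 in young and 0.07 in old cells. Chd4, a NuRD remodelling ATPase, was at 56.1 in young KO and 56.5 in young WT, and at 63.5 in old KO and 68.5 in old WT. Gatad2a, the paralog of Gatad2b, was at 34.6 in young KO and 37.1 in young WT, and at 35.99 in old KO and 33.6 in old WT.

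Of the 6 heterochromatin genes listed as partners of MBD1, 1 passed 1.5-fold. Cbx3, which encodes the heterochromatin protein HP1-gamma, stood at 9.41 in young KO against 16.2 in young WT and at 6.32 in old KO against 15.1 in old WT, differences of -0.72 and -1.13. Both KO values lay below both WT values. The files also list pseudogene copies of Cbx3, led by Cbx3-ps6 at 47.8 in young KO and 42.7 in young WT, and at 63.6 in old KO and 56.1 in old WT. Another copy, Cbx3-ps7, was at 8.17 in young KO and 8.53 in young WT, and at 25.4 in old KO and 36.4 in old WT. Reads may be split among the copies, so the value of Cbx3 alone is uncertain. With the listed copies summed, a step chosen after the data were seen, the KO differences were -0.07 in young and -0.17 in old cells, and neither passed 1.5-fold. The other 5 differed by at most 0.21 in size at either age. Setdb1, the histone methyltransferase that MBD1 recruits, was at 17.0 in young KO and 16.2 in young WT, and at 15.1 in old KO and 15.9 in old WT.

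Among 24 measured genes of oxidation and base excision, none reached 1.5-fold in young cells, and 1 was higher and 1 lower in old KO, with medians of 0.04 and 0.05. Neil1, a glycosylase that works after TDG, was at 2.11 in young KO against 3.12 in young WT and at 2.77 in old KO against 6.60 in old WT, differences of -0.41 and -1.01. The old WT value was the high one of the 4 libraries. The gene higher in old KO, Nthl1, another glycosylase, was at 3.40 in old KO against 1.53 in old WT, and at 1.46 in young KO against 1.82 in young WT. Idh2, whose product 2-oxoglutarate the TET enzymes consume, was at 38.3 in young KO and 34.9 in young WT, and at 42.9 in old KO and 33.5 in old WT. It was named after its values were seen, as were Nthl1, Uhrf1, Chd4, Gatad2a and Setdb1.

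Of the 19 genes followed in methyl donor and folate metabolism, none passed 1.5-fold among the 19 measured in young cells or the 18 measured in old cells, with medians of 0.02 and 0.00. Mthfd1, a folate enzyme, was at 54.7 in young KO against 44.0 in young WT and at 49.7 in old KO against 68.9 in old WT. None of 7 CXXC proteins, which bind unmethylated CpG or carry that domain, reached 1.5-fold, but their medians were 0.21 in young and -0.09 in old cells. Kdm2a, an H3K36 demethylase with a CXXC domain, was at 12.1 in young KO against 7.82 in young WT. Its young difference of 0.57 was just under the 1.5-fold line, which its plain ratio passed. In old cells it was at 11.9 in KO against 12.4 in WT, so the young WT value was the low one of the 4. None of 7 genes of H3K36 methylation reached 1.5-fold, with medians of -0.11 in young and 0.02 in old cells.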

How the data were processed

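Total RNA of sorted LSK cells was sequenced in 4 libraries, from 100 ng of RNA each per the labels' protocols. The 2 bisulfite samples were not analysed here. The deposited files give 1 FPKM per gene, per the file headers, and list only genes at 0.5 or more, as seen in the values. The submitters' processing notes name mm10 (GRCm38), StringTie 1.3.0 and HISAT2 2.0.4 without saying what each did.

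Rows were summed by symbol. Unlisted genes were set to 0.5. Libraries were scaled by medians of ratios over 10935 genes at an FPKM of 1 or more in all 4. A gene was measured in a comparison at a scaled FPKM of 1 or more in 1 of its 2 libraries. Steps were tested on simulated data. A counted unit was taken as 2 of the finest steps between low values of genes under 1.5 kb, the coarser of 2 readings. Counting intervals are at 95%.

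The 10 genes and all lists were chosen with earlier results of these data known, and some genes of the partner lists are not reported here. Of each partner list, up to 3 genes with the largest KO difference at 5 FPKM or more could be named. Replicates within a group do not exist, so no test was made. Python 3.11.15, numpy 2.4.6 and pandas 2.3.3 were used.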

Additional observations from a re-analysis of the deposited data

Results flagged for a closer look

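Of the 10 genes, 4 had KO differences of opposite sign in old and young cells, where 48.5% of all genes measured at both ages did. The difference between the ages was not tested, since each group has 1 library. The difference of the KO differences, old minus young, was -0.44 for Mbd2, which stood above WT in young KO and below WT in old KO. It was 0.13 for Tet2, 0.12 for Tet3 and 0.075 for Dnmt1, each of which stood slightly below WT in young KO and slightly above WT in old KO. Over all genes, the 5th and 95th percentiles of this value were -0.82 and 0.77.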

How the results depend on the processing

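No paired analysis was possible because each group has 1 library, and for the same reason no library could be left out. The results were recomputed with no scaling, upper-quartile scaling, scaling on fewer genes, pseudocounts of 0.1 and 5, other limits on low values and unlisted genes at 0. No gene of the 10 reached 2-fold under any of them. With a pseudocount of 0.1, 1 of the 10 genes passed 1.5-fold in old WT against young WT (Mbd2, higher) and 1 in old KO against young KO (Mbd3, higher), where none did with a pseudocount of 1. Of 501 recomputed values, 210 were identical to the reported ones, since having no filter and setting unlisted genes to 0 could not change the 10 genes, which are listed at more than 1 in every library. Of the 291 that differed, 287 kept to within the counting error or the count, and 2 of the others are those of Cbx3 with its copies added, given above. This is a weak check, since the half-widths at 1 kb between 2 libraries ran from 0.13 for Dnmt1 to 0.89 for Tdg. Between the WT libraries Dnmt1 moved from -0.06 to -0.17 without scaling and still counted as within the error. Without scaling the median of all genes moved to -0.10 in young KO against young WT, to -0.11 in old WT against young WT and to 0.09 for the old minus young difference, and upper-quartile scaling moved it to -0.10 in old KO against young KO. A sign turned in 9 values, all near 0. In young KO against WT these were the median of the 10 genes (-0.10 without scaling, -0.00 with a pseudocount of 5) and Mbd3 (-0.05 without scaling). Between the WT libraries it was Tdg without scaling. Between the KO libraries, old against young, they were Dnmt1 and Tet2 with upper-quartile scaling and Tdg with its copy added. In the old minus young difference of the KO differences they were Dnmt3b without scaling and Tdg with upper-quartile scaling. Below an FPKM of about 5, as for Tet1, Tet2 and Tdg, depth limits what could be seen to log2 ratios past 0.59 to 0.89 at 1 kb of transcript.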

Other observations

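Ogt, the sugar transferase that binds TET proteins, was chosen after its values were seen. It stood at 21.6 in old KO against 46.3 in young KO and at 23.6 in old WT against 42.5 in young WT, a difference of -1.06 between KO and -0.82 between WT libraries. Both old values lay below both young values, whereas KO and WT differed by 0.12 in young and -0.12 in old cells.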
